A study of Mus musculus with 9 samples.

Results

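The nuclear genes of oxidative phosphorylation were read for the peaks of 7 chromatin immunoprecipitations at their starts. Members were the protein-coding mouse genes of the RefSeq annotation on the autosomes and X whose symbols begin with Nduf, Uqcr or Atp5, run from Sdha to Sdhd, or begin with Cox followed by a digit from 4 to 8 and a letter. The rule used symbols alone and no measured value. It found 96 members among 21627 protein-coding genes, and 78 of them had a transcription start listed in the promoter table, out of 17273 genes with one. The 78 comprised 35 complex I subunits, 7 complex I assembly factors, 3 genes of complex II, 5 of complex III, 13 of complex IV and 15 of complex V. The other 18 members, which had no listed start, were read at both ends of the gene and are given separately.

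Chromatin came from MYCN-driven T-cell lymphoma cells taken from the thymus of C57BL/6J mice and was profiled by ChIPmentation, chromatin immunoprecipitation with adapters inserted by a transposase into the precipitated chromatin. The 7 antibodies recognised EZH2 and SUZ12, the catalytic subunit and a core subunit of Polycomb repressive complex 2, H3K27me3, the mark this complex deposits, N-MYC, the driving transcription factor, the acetyltransferase p300, and the active marks H3K27ac and H3K4me3. Each had 1 library, all from the same strain, tissue and labelled cell type, and the 2 input libraries were not analysed here. The labels name neither the promoter that drives MYCN nor the animal or number of animals behind each immunoprecipitation. The title of the series calls EZH2 a transcriptional activator in this lymphoma, so the question read from it here is whether the starts of these genes carry EZH2, with which other features, and whether the complexes differ. With 1 library per antibody no difference could be tested against replicate error, and p-values are left out. Intervals are 95% Wilson intervals on counts of genes and cover counting error only. A missing peak means that the authors' threshold was not passed there, and absence of the protein or mark was not shown. The cells were read in bulk, so a weak peak in all cells and a strong one in some cannot be told apart.

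Oxidative phosphorylation is carried out in the inner mitochondrial membrane. Complex I takes electrons from NADH and complex II from succinate, ubiquinone carries them to complex III, cytochrome c carries them on to complex IV, which reduces oxygen, and complex V uses the resulting proton gradient to make ATP. All subunits of complex II and most subunits of the other complexes are encoded in the nucleus and imported, while a few core subunits are encoded by mitochondrial DNA, which the lists were not read for. In proliferating cells MYC proteins are known to bind and promote many genes of mitochondrial biogenesis, and the factors NRF1, GABPA (an ETS factor) and YY1 are known regulators of respiratory chain genes.

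The promoter sequences of 9 members are shown because they mark the range of patterns found. They are the 200 bases before the start, written 5' to 3' on the gene's own strand, from RefSeq on assembly GRCm38.p6. Capitals mark motifs where present, namely the E-box CACGTG, to which MYC and MAX bind, the related hexamer CACGCG, and the core GCGCANGCG of the NRF1 site. Cox5a (chr9:57521032-57521231, plus strand) and Ndufb5 (chr3:32736863-32737062, plus strand) had the highest N-MYC fold enrichment among members with a listed start and hold none of these motifs in the stretch. Atp5g1 (chr11:96075632-96075831, minus strand) and Ndufv1 (chr19:4012756-4012955, minus strand) have an N-MYC peak and an E-box, and Ndufc2 (chr7:97399803-97400002, plus strand) has an N-MYC peak and CACGCG.
Cox5a: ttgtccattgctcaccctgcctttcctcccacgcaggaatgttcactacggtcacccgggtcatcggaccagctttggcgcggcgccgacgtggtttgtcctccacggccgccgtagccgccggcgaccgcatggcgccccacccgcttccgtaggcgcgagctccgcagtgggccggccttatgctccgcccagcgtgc
Ndufb5: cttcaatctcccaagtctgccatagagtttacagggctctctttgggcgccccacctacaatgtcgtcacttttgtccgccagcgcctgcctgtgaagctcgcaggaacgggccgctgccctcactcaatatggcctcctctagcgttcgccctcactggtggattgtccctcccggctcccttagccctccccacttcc
Atp5g1: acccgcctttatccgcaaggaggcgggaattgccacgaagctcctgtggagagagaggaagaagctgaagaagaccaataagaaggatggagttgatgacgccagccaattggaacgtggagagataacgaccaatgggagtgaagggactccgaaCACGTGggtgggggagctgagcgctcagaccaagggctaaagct
Ndufv1: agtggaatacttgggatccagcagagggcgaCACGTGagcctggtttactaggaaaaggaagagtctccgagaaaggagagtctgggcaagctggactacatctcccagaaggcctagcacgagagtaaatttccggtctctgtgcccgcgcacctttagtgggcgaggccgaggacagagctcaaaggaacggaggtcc
Ndufc2: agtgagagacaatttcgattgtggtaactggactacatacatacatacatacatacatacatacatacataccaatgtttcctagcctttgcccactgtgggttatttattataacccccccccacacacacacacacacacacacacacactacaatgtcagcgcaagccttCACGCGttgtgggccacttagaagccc
Atp5g2 (chr15:102671048-102671247, minus strand) was the member with peaks in all 7 lists. Cox6a1 (chr5:115348959-115349158, minus strand) and Ndufb4 (chr16:37654369-37654568, minus strand) hold several NRF1 cores and had EZH2 but no N-MYC peak. Cox8b (chr7:140900447-140900646, minus strand), an isoform of heart and skeletal muscle, had no peak in any list.
Atp5g2: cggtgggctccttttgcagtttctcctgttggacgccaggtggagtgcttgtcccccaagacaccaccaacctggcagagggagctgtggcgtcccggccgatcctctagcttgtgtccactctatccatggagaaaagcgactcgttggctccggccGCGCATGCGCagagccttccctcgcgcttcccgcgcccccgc
Cox6a1: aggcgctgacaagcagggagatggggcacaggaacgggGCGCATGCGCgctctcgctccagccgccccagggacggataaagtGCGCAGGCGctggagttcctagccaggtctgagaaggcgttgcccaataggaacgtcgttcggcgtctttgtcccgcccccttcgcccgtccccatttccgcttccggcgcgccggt
Ndufb4: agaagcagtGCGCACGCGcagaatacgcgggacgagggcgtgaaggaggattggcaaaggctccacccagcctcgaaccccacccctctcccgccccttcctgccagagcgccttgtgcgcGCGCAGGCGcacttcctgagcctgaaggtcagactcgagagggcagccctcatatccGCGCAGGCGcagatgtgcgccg
Cox8b: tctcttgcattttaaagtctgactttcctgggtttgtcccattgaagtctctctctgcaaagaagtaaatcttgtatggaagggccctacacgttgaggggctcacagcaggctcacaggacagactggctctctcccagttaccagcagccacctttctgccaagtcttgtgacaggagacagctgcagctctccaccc

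A list was counted at a gene when 1 of its peaks overlapped the start by at least 1 bp within 1 kb on either side, and the peak of highest fold enrichment stood for it. Counts and rankings of members cover the 78 with a listed start unless the other 18 are named. Fold enrichment is the authors' linear ratio of a peak over background, and it was compared within a list and not between lists. EZH2 peaks lay at 66 of 78 members (84.6%, interval 75 to 91.0%), against 46.6% of all genes with a listed start. The other subunit of the Polycomb complex and its mark were nearly missing from the same starts: SUZ12 had a peak at 1 member (1.28%, interval 0.227 to 6.91%) against 12.9% of all genes, and H3K27me3 at 2 members (2.56%, interval 0.706 to 8.88%) against 24.6%. EZH2 together with SUZ12 or H3K27me3 was called at 1 member, Atp5g2, or 1.28%, against 13.7% of all genes. The remaining 65 members with EZH2 had neither (83.3%), against 32.9% of all genes. Among genes with EZH2, this state was found at 65 of 66 members and at 5686 of 8046 genes.

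Active features covered most of the genes. H3K27ac was called at 76 members (97.4%, interval 91.1 to 99.3%) and H3K4me3 at 75 (96.2%, interval 89.3 to 98.7%), each against 52.8% of all genes. p300 had peaks at 65 members (83.3%, interval 73.5 to 90%) against 41.1%, and N-MYC at 47 (60.3%, interval 49.2 to 70.4%) against 34.4%. All 4 of these lists without SUZ12 or H3K27me3 were found at 43 members (55.1%, interval 44.1 to 65.7%) against 30.2% of all genes. Such genes have H3K4me3 by definition, and among genes with that mark the counts were 43 of 75 members and 5210 of 9114 genes. These shares are close to each other, so the combination is no result about the members. Cox7b2 and Cox8b were the 2 members (2.56%) with no peak in any list, a state of 27.3% of all genes.

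**Figure D1:**
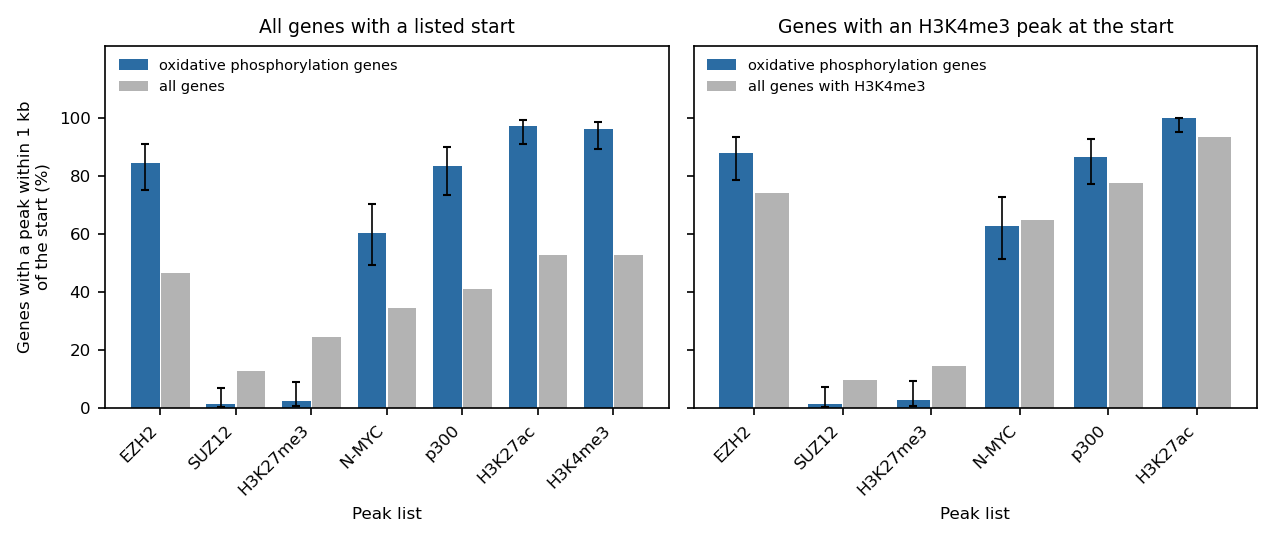
Percent of genes with a peak within 1 kb of the start, for the oxidative phosphorylation genes (blue, with 95% Wilson intervals) and for the background genes (grey), in each peak list. On the left, 78 members stand beside 17273 genes; on the right, the 75 members with an H3K4me3 peak stand beside the 9114 genes with one, and the N-MYC bars come to 62.7% and 64.8%.

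Because most members have an active promoter, the shares were also read among genes with an H3K4me3 peak, the mark of active promoters. There EZH2 was called at 66 of 75 members (88.0%, interval 78.7 to 93.6%) against 74.0% of 9114 genes. p300 had peaks at 65 of 75 (86.7%, interval 77.2 to 92.6%) against 77.5%, which lies inside the interval, so the p300 share is no result about the members. H3K27ac was called at all 75 (interval 95.1 to 100%) against 93.4%. The share with N-MYC, 47 of 75 (62.7%, interval 51.4 to 72.7%), was close to the 64.8% of all genes with H3K4me3, so it is no result about the members. SUZ12 at 1.33% and H3K27me3 at 2.67% were below the 9.60% and 14.5% of genes with H3K4me3.

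The H3K4me3 fold enrichment of members was high, with a median of 31.7 over 75 members against 26.6 over all genes with a peak, and 29 members were in the highest of 4 equal bins of genes by that value while 4 were in the lowest bin. When members were set beside genes of the same bin, the EZH2 shares were near each other in the upper bins. In the highest bin (H3K4me3 fold 33.8 to 52.0) EZH2 was called at 29 of 29 members (100%) and at 99% of 2279 genes, and in the bin from 26.6 to 33.8 at 22 of 24 members (91.7%) and at 91.5% of 2272 genes. In the bin from 18 to 26.6, 14 of 18 members (77.8%) had EZH2 against 64.9% of 2284 genes, and in the lowest bin 1 of 4 against 40.8%. N-MYC was called at 12 of 24 members (50%) against 74.9% of genes in the bin from 26.6 to 33.8, and at 22 of 29 (75.9%) against 84.9% in the highest bin. In the bin from 18 to 26.6 N-MYC was called at 12 of 18 members (66.7%) against 66.2%, and in the lowest bin at 1 of 4 against 33.4%. For p300 the shares of members and genes from the highest bin to the lowest were 25 of 29 (86.2%) against 97.3%, 22 of 24 (91.7%) against 92.5%, 16 of 18 (88.9%) against 82.1%, and 2 of 4 against 38%.

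Peak strength did not follow the same order as the number of calls. The median fold of EZH2 at the 66 members with a peak was 5.72, against 5.83 over 8046 genes. Within the bins of H3K4me3, from highest to lowest, EZH2 medians at members were 6.30, 5.28, 4.62 and 3.21. Those of genes in the same bins were 7.14, 5.43, 4.71 and 5.35, and the lowest bin held 1 member with EZH2. N-MYC had a median of 5.36 over 47 members against 6.01 over 5945 genes, and p300 one of 4.90 over 65 members against 5.40 over 7104 genes. H3K27ac, by contrast, had a median of 15.4 over 76 members against 12.4 over 9121 genes. EZH2 peaks at members had a median width of 653 bp, against 759 bp over all genes, and N-MYC peaks 414 bp against 588 bp.

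The number of EZH2 calls depends on the length of the list. The EZH2 list held 18727 peaks on the chromosomes used, N-MYC 9798 and p300 15643. When every list was shortened to its 9798 strongest peaks, EZH2 was called at 60.3% of members and 35% of genes, and N-MYC, whose list was not shortened, at 60.3% and 34.4%. More calls for EZH2 than for N-MYC at these genes were therefore seen with the lists as deposited and not with lists of equal length.

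**Figure D2:**
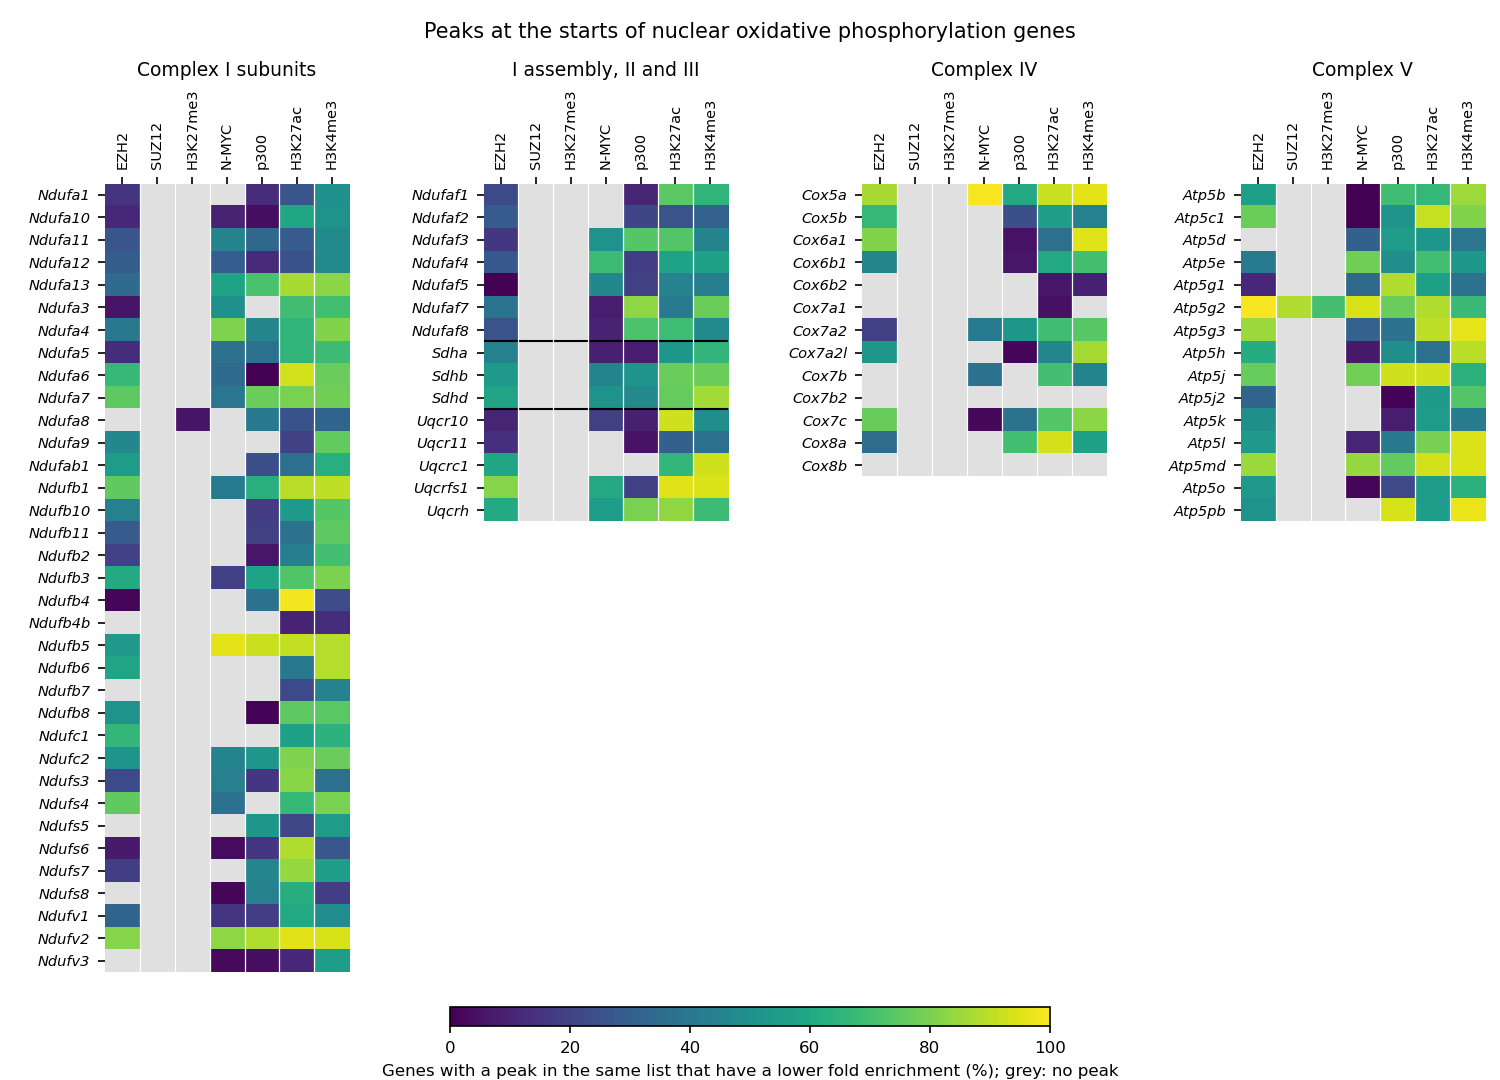
Each row is one of the 78 members with a listed start and each column a peak list; colour gives the percent of genes with a peak in that list that have a lower fold enrichment, and grey marks no peak. The SUZ12 and H3K27me3 columns are grey except at Atp5g2, and in H3K27me3 also at Ndufa8, while the H3K4me3 and H3K27ac columns are filled at most genes and the N-MYC column is broken.

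The complexes were next compared. Over all genes with a listed start the shares were 46.6% for EZH2, 34.4% for N-MYC and 41.1% for p300. Over genes with H3K4me3 they were 74.0%, 64.8% and 77.5%. Complex V had EZH2 peaks at 14 of 15 genes (93.3%, interval 70.2 to 98.8%), complex I subunits at 29 of 35 (82.9%, interval 67.3 to 91.9%) and complex IV at 8 of 13 (61.5%, interval 35.5 to 82.3%). All 7 complex I assembly factors, all 3 genes of complex II and all 5 of complex III had one, with intervals from 64.6%, 43.9% and 56.6% to 100%. The EZH2 interval of every group contained the 74.0% of genes with H3K4me3. N-MYC was called at 12 of 15 genes of complex V (80.0%, interval 54.8 to 93.0%), 20 of 35 complex I subunits (57.1%, interval 40.9 to 72.0%), 5 of 7 assembly factors (71.4%), 3 of 3 in complex II, 3 of 5 in complex III (60.0%) and 4 of 13 in complex IV (30.8%, interval 12.7 to 57.6%). The intervals of complexes IV and V overlap for both EZH2 and N-MYC. With peaks of a q-value of at most 1e-05 alone, N-MYC was called at 46.7% of complex V, 48.6% of complex I subunits and 23.1% of complex IV, so the higher share of complex V than of complex I subunits was lost. p300 was called at 15 of 15 genes of complex V, 28 of 35 complex I subunits and 8 of 13 of complex IV.

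Complex IV holds 4 of the tissue-restricted isoforms with a listed start, Cox6b2, Cox7a1, Cox7b2 and Cox8b. Without them EZH2 was called at 8 of 9 genes of complex IV (88.9%) and N-MYC at 4 of 9 (44.4%), so without the isoforms its EZH2 share was near those of the other groups, whereas its N-MYC share was still the lowest of the 6 groups. That rank rests on 9 genes and on grouping by symbol. Ndufa4, since assigned to complex IV and with an N-MYC peak (8.70), was counted in complex I, so the order for N-MYC is not settled.

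**Figure D3:**
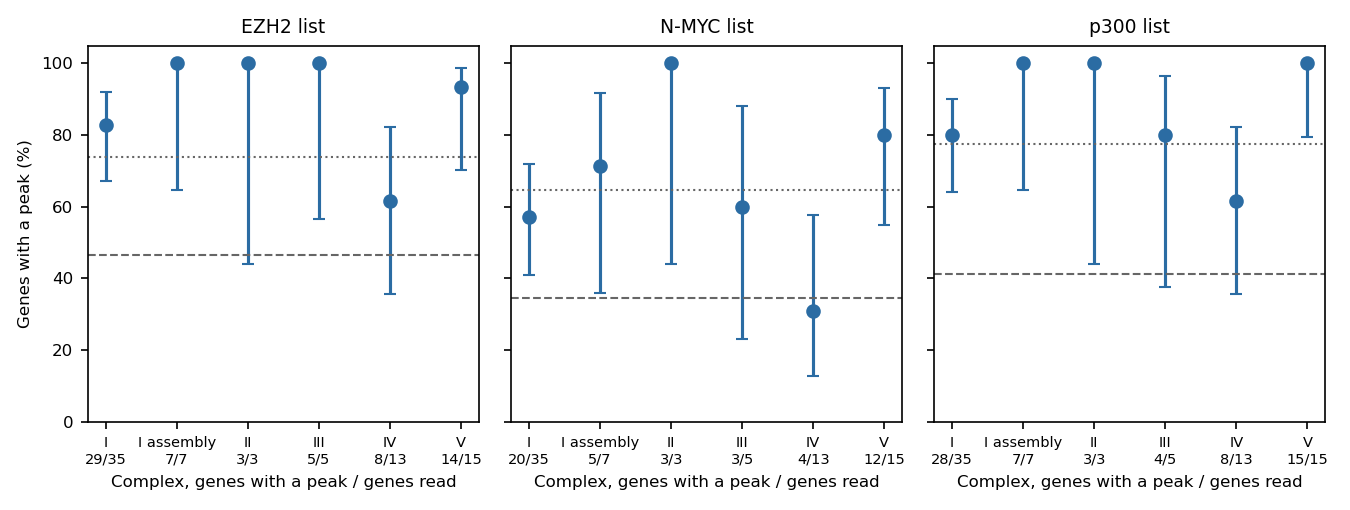
Percent of genes with an EZH2, N-MYC or p300 peak in each group of members, with 95% Wilson intervals; the numbers under each group are genes with a peak over genes read. The dashed line is the share of all genes with a listed start and the dotted line that of genes with H3K4me3; for N-MYC, complex IV (30.8%) is below both lines and complex V (80.0%) above both.

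Complex I oxidises NADH through a peripheral arm that holds the flavin and the iron-sulfur clusters. Of its core subunits in that arm with a listed start, Ndufv2 had the strongest EZH2 and N-MYC signals, with fold enrichments of 8.01 for EZH2 and 8.96 for N-MYC, beside 41.4 for H3K4me3, 26.1 for H3K27ac and 7.88 for p300. Ndufv1, which carries the flavin and the NADH site, had 4.99 for EZH2, 4.27 for N-MYC and 26.2 for H3K4me3, so these values were lower than at Ndufv2. Ndufs3 had 4.56 for EZH2, 5.64 for N-MYC and 22.4 for H3K4me3. Ndufs7, an iron-sulfur subunit next to the quinone site, had EZH2 (4.39), p300 (5.15) and H3K4me3 (28.3) but no N-MYC peak. Ndufs8, another iron-sulfur subunit, was the reverse, with N-MYC (3.12), p300 (5.11) and H3K4me3 (14.5) but no EZH2.

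Among the accessory subunits of complex I, which surround the core, Ndufb5 had the highest N-MYC fold of the complex (12.75) with EZH2 at 6.03, p300 at 8.49 and H3K4me3 at 38.8. Its start lies 308 bp from that of Mrpl47, a mitochondrial ribosomal protein gene. Ndufa4, a subunit since assigned to complex IV, had N-MYC at 8.70 and EZH2 at 5.33. Ndufa9, Ndufb6 and Ndufc1 had EZH2 (5.63, 6.24 and 6.76) with H3K4me3 and H3K27ac but neither N-MYC nor p300. Ndufb7, Ndufb4b, Ndufs5 and Ndufa8 had H3K4me3 with neither EZH2 nor N-MYC. Ndufb4b, a copy of Ndufb4, had H3K4me3 at 11.1 and H3K27ac at 4.96, near the bottom of the members, and reads from near-identical copies can be hard to place. Ndufb4 itself combined the highest H3K27ac fold of all members (29.5) with a low H3K4me3 fold (17.2) and a low EZH2 fold (3.21). Ndufa8 was the second member with a listed start and H3K27me3, at a fold of 3.68, and its H3K27me3 summit was more than 1 kb from the start.

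The assembly factors of complex I, which build the enzyme and are not part of it, had EZH2 at all 7 genes, but at folds from 2.85 at Ndufaf5 to 5.23 at Ndufaf7, with a median of 4.69. N-MYC was called at Ndufaf3 (6.08), Ndufaf4 (7.37), Ndufaf5 (5.81), Ndufaf7 (3.87) and Ndufaf8 (3.97), and not at Ndufaf1 or Ndufaf2. With lists of equal length, EZH2 was called at 28.6% of these genes.

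Complex II, succinate dehydrogenase, also belongs to the citric acid cycle. Sdha, its flavoprotein, had EZH2 at 5.51, N-MYC at 3.92 and H3K4me3 at 31.1. Sdhb, the iron-sulfur subunit, had 6.00, 5.74 and 34.6 for the same lists, and Sdhd, a membrane anchor, had 6.24, 6.09 and 37.5. All 3 also had p300 and H3K27ac, and none had SUZ12 or H3K27me3.

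In complex III, which passes electrons from ubiquinol to cytochrome c, Uqcrfs1, the Rieske iron-sulfur protein, had EZH2 at 8.01, N-MYC at 6.70, H3K27ac at 26.1 and H3K4me3 at 41.8. Uqcrc1, a core protein of the matrix side, had EZH2 at 6.30 and H3K4me3 at 40.7 with neither N-MYC nor p300. Uqcrh, the hinge protein, had EZH2 at 6.42 and N-MYC at 6.40. Uqcr10 had EZH2 at 3.98 and N-MYC at 4.47, whereas Uqcr11 had EZH2 at 4.16 and no N-MYC peak.

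In complex IV, cytochrome c oxidase, Cox5a had the highest N-MYC fold of all members, 14.93, with EZH2 at 8.60, p300 at 5.89, H3K27ac at 23.1 and H3K4me3 at 42.7. Cox5b, the other subunit of that number, had EZH2 at 6.78, p300 at 4.34 and H3K4me3 at 24.6 but no N-MYC peak. Cox7a2 and Cox7c had N-MYC at 5.59 and 3.21, with EZH2 at 4.41 and 7.51. Cox6a1, Cox6b1, Cox8a and Cox7a2l, a factor of respiratory supercomplexes, had EZH2 at 7.88, 5.58, 5.14 and 5.93 and no N-MYC peak. Cox7b had N-MYC (5.36) and H3K4me3 (25.1) without EZH2.

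The isoforms of complex IV that are known to be restricted to some tissues, such as heart, skeletal muscle, lung or testis, stood apart from their general counterparts. Cox7b2 and Cox8b had no peak in any list, beside Cox7b and Cox8a, which had H3K4me3 at 25.1 and 28.7. Cox7a1, the heart and muscle form, had an H3K27ac peak of fold 3.95 and nothing else, beside Cox7a2 with H3K4me3 at 33.5. Cox6b2, the testis form, had H3K27ac at 4.25 and H3K4me3 at 7.93, the lowest values of either list bar that of Cox7a1 among members with a listed start, beside Cox6b1 with 14.4 and 32.4. None of the 4 had EZH2, SUZ12, H3K27me3, N-MYC or p300.

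Complex V, the ATP synthase, had N-MYC and EZH2 at most genes. Atp5b, the catalytic beta subunit, had EZH2 at 6.15, N-MYC at 2.62 and H3K4me3 at 37.2, and Atp5c1, the gamma subunit of the rotor, had 7.56, 2.52 and 35.7. These were the lowest N-MYC folds of the members, although H3K4me3 at both was above the median. Among the 3 genes for the same membrane ring subunit c, EZH2 ranged from 4.04 at Atp5g1 over 8.41 at Atp5g3 to 14.75 at Atp5g2, and N-MYC was 5.20, 5.02 and 11.85 in that order. Atp5md had EZH2 at 8.41 and N-MYC at 9.15, and Atp5e, the epsilon subunit, 5.43 and 8.40. Atp5d, the delta subunit of the central stalk, had N-MYC at 4.98 without EZH2. Atp5pb, a stator subunit, had the highest H3K4me3 fold (43.7) and the highest p300 fold (8.80) of the members with a listed start, and no N-MYC peak. Atp5j2 and Atp5k were the other genes of this complex without N-MYC.

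At Atp5g2 Polycomb features and active features lay next to each other and overlapped in part. The EZH2 peak ran from -3489 to 748 bp relative to the start, with its summit at -1057, and the SUZ12 peak (fold 10.1) from -4177 to 97 bp, with its summit at -1751. H3K27me3 (fold 12.6) covered -4451 to -447 bp and did not reach the start. N-MYC covered -286 to 414 bp with its summit at 80, p300 -162 to 740 bp, H3K4me3 (fold 31.7) -307 to 1299 bp and H3K27ac (fold 21.5) -191 to 2617 bp. A second, weaker H3K4me3 peak (fold 5.70) covered -987 to -611 bp, inside the H3K27me3 and SUZ12 peaks. The EZH2 peak spanned the N-MYC peak, and the H3K27me3 and N-MYC peaks did not overlap. When a summit was required within 1 kb of the start, no member was left with SUZ12 or H3K27me3.

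**Figure D4:**
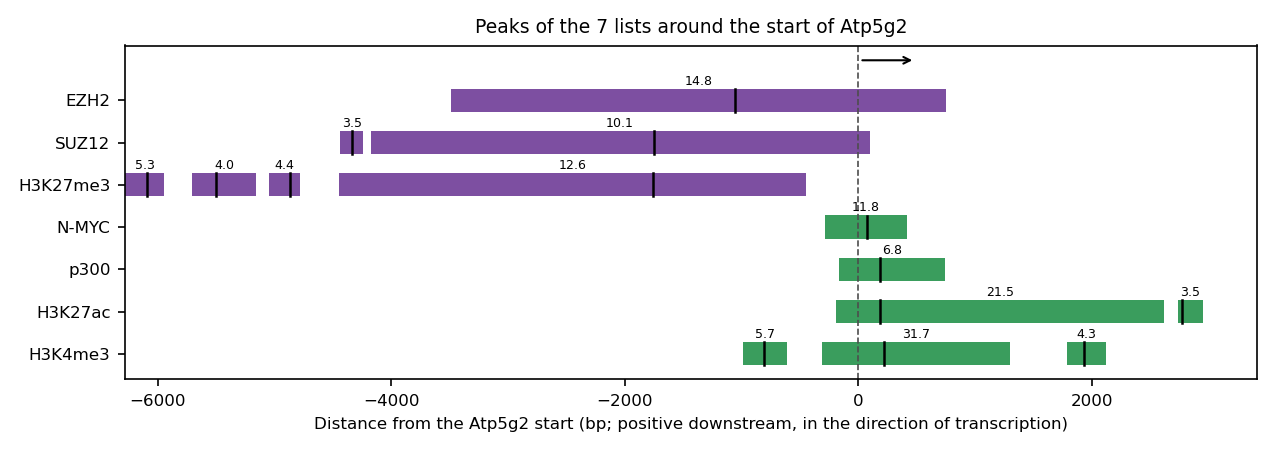
Peaks of the 7 lists around the start of Atp5g2 (dashed line, arrow in the direction of transcription), by distance from the start in bp; bars are peaks, black ticks their summits and numbers their fold enrichment. EZH2, SUZ12 and H3K27me3 (purple) lie mostly upstream, with EZH2 reaching 748 bp past the start, and the strongest peaks of the other lists (green) lie across the start, with a weaker H3K4me3 peak (5.70) upstream.

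EZH2 and N-MYC were called together at 43 members (55.1%, interval 44.1 to 65.7%), against 28.6% of all genes. EZH2 without N-MYC was found at 23 members (29.5%, interval 20.5 to 40.4%) against 17.9%, and N-MYC without EZH2 at 4 (5.13%) against 5.78%, a share near the background. The 4 were Ndufs8, Ndufv3, Cox7b and Atp5d. Among the 75 members with H3K4me3, EZH2 was called at 43 of the 47 with N-MYC and at 23 of the 28 without it. Over all genes with H3K4me3 the corresponding counts were 4935 of 5910 and 1811 of 3204. Among genes with H3K4me3, EZH2 and N-MYC were thus called together at 43 of 75 members and at 4935 of 9114 genes. These shares are near each other, so the joint call is no result about the members. EZH2 without N-MYC was called at 23 of the 75 members and at 1811 of the 9114 genes.

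Of the 28 members with H3K4me3 but no N-MYC peak, the 10 with the strongest H3K4me3 were Atp5pb (43.7), Cox6a1 (42.1), Uqcrc1 (40.7), Ndufb6 (38.7), Cox7a2l (37.8), Ndufa9 (34.0), Ndufb11 (33.8), Ndufb8 (33.5), Ndufb10 (33.3) and Atp5j2 (33.1). All 10 had EZH2. Their H3K4me3 folds lie in the bin from 26.6 to 33.8 or in the highest bin, where EZH2 was called at 91.5% and 99% of genes. The count of 10 is therefore no result about members without N-MYC. H3K4me3 had a median of 32.2 at the 47 members with N-MYC and 30.6 at the 28 without, and the ranges overlapped, from 14.5 to 42.9 and from 7.93 to 43.7. H3K27ac had medians of 17.0 and 11.5, with ranges from 5.30 to 26.1 and from 4.25 to 29.5. Over all genes with H3K4me3, the H3K27ac medians were 14.8 with N-MYC and 9.40 without, and the H3K4me3 medians 29.7 and 19.

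Across members, EZH2 fold enrichment followed that of H3K4me3. Spearman's rho was 0.69 and Pearson's r 0.55 over the 66 members with both peaks, and rho was 0.45 over 6746 genes. For N-MYC and H3K4me3 rho was 0.23 over 47 members, for N-MYC and EZH2 0.20 over 43, and for N-MYC and H3K27ac 0.44 over 47. These values describe genes read in the same 7 libraries, which share chromatin accessibility and base composition, and genes are not independent replicates. Among the 78 members with a listed start, the lowest EZH2 folds were those of Ndufaf5 (2.85), Ndufb4 (3.21) and Ndufa3 (3.68), and the highest those of Atp5g2 (14.75), Cox5a (8.60) and Atp5g3 (8.41). For p300 the lowest were Ndufa6 (2.73), Ndufb8 (2.92) and Atp5j2 (2.99) and the highest Atp5pb (8.80), Atp5j (8.62) and Ndufb5 (8.49). H3K27ac was highest at Ndufb4 (29.5), Ndufv2 and Uqcrfs1 (26.1 each), and H3K4me3 at Atp5pb (43.7), Atp5g3 (42.9) and Cox5a (42.7).

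**Figure D5:**
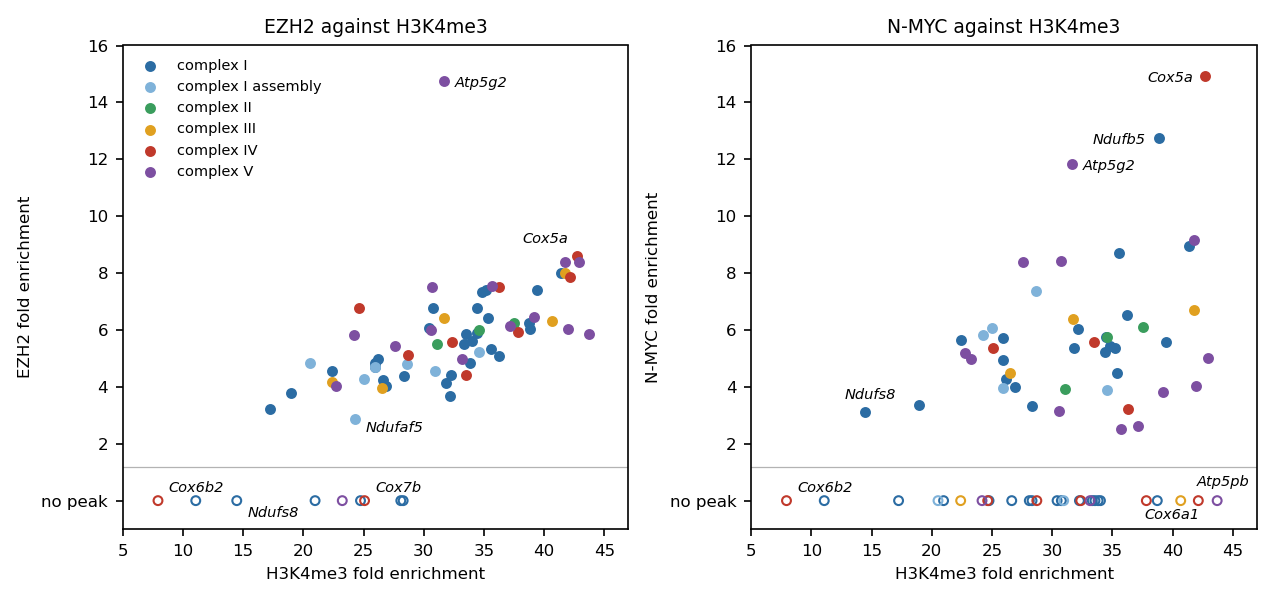
EZH2 (left) and N-MYC (right) fold enrichment of each member against its H3K4me3 fold enrichment, coloured by complex; open circles under the grey line are members with H3K4me3 and no peak in the other list. EZH2 increases along the H3K4me3 axis with Atp5g2 far above the other points (14.75), whereas members without N-MYC are spread along the axis up to Atp5pb (43.7).

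Summits were placed relative to the start for members with a single listed start, with positive distances downstream. N-MYC summits had a median of -11 bp over 42 members and p300 summits one of -40.5 bp over 60, and the summits of EZH2, H3K27ac and H3K4me3 lay downstream, at medians of 232.5 bp over 62 members, 210 bp over 71 and 306 bp over 70. The medians over all genes were -3, -20, 270, 239 and 282 bp in the same order. EZH2 lay downstream of N-MYC at 28 of 39 members with both (71.8%), against 76.2% of 3889 genes. H3K4me3 and EZH2 summits were a median of 104.5 bp apart at 62 members, less than the 311 bp between EZH2 and N-MYC at 39. Over all genes these distances were 110.5 and 317 bp, so they are not particular to the members.

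Motifs were counted on both strands in the stretch from 250 bases before to 50 after the start. The NRF1 core GCGCANGCG was present at 22 of 78 members (28.2%), against 9.73% of all genes and 16.5% of genes with H3K4me3. The YY1 core AAGATGGCG was present at 8 (10.3%) against 2.15% and 3.91%. For the ETS core ACTTCCGG the shares were 6.41% of members, 5.76% of genes and 10.1% of genes with H3K4me3, and for the TATA box TATAAA 10.3%, 14.9% and 8.0%. The NRF1 core was about as frequent at members with N-MYC (14 of 47, 29.8%) as at those with H3K4me3 and no N-MYC (8 of 28, 28.6%). A match is a description of the letters and not a bound site.

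The E-box CACGTG was present at 6 of 78 members (7.69%), against 9.02% of all genes and 12.2% of genes with H3K4me3, so members did not hold it more often than other genes. Of the 6, Atp5g1, Atp5g3, Atp5l, Ndufa7 and Ndufv1 had an N-MYC peak and Atp5pb had none. The hexamer CACGCG, added after the data were seen, was present at 16 members (20.5%), against 13.9% of all genes and 21.6% of genes with H3K4me3. It was found at 15 of the 47 members with N-MYC (31.9%) and 1 of the 28 with H3K4me3 and no N-MYC (3.57%), the exception being Ndufb4, and over all genes with H3K4me3 the shares were 26.5% and 12.4%. At 5 members the hexamer overlapped an NRF1 core, and 4 of these had N-MYC. At the 15 members with N-MYC, the N-MYC summit lay a median of 103.5 bp from the nearest CACGCG. For the nearest E-box the median was 259.5 bp at 5 members, and at Ndufa7 the E-box was centred 2.5 bp from the summit. Both hexamers were sought only in the stretch around the start, and most N-MYC summits also lay near the start. That alone limits the distances, and none to an unrelated motif was compared. The medians therefore cannot show whether N-MYC lies close to either hexamer. Cox5a and Ndufb5, with the highest N-MYC folds, held neither hexamer in that stretch.

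Several members share a promoter region with another gene. Another gene's listed start lay within 1 kb at 24 of 78 members (30.8%), against 10.1% of all genes, and a peak there counts for both genes. Among members with H3K4me3, N-MYC was called at 19 of the 24 with such a neighbour (79.2%) and 28 of the 51 without (54.9%), and over all genes with H3K4me3 at 75.6% and 62.5%. EZH2 was called at 23 of the 24 (95.8%) and 43 of the 51 (84.3%), against 84.0% and 71.8% over all genes. The neighbours included Rps28, a cytosolic ribosomal protein gene, 10 bp from Ndufa7, Timm8b, of the mitochondrial import system, 52 bp from Sdhd, and Gabpa, the regulator named above, 148 bp from Atp5j. The strongest N-MYC peak at Atp5j (8.43) is also the strongest at Gabpa, so the signal cannot be assigned to either gene.

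For the 18 members without a listed start, peaks were read within 1 kb of either gene end. EZH2 had a peak at 13 of them, SUZ12 at 1, H3K27me3 at 4, N-MYC at 7, p300 at 9, H3K27ac at 14 and H3K4me3 at 13. Read the same way, EZH2 was called at 44.8% of all 21627 genes, SUZ12 at 13.9%, H3K27me3 at 27.9%, N-MYC at 32.4%, p300 at 38.8%, H3K27ac at 53% and H3K4me3 at 50.6%, so the N-MYC and H3K27me3 counts were near the background. Core subunits were among them: Atp5a1, the alpha subunit of complex V, had EZH2 at 10.4, N-MYC at 6.30 and H3K4me3 at 43.7. Ndufs1, the largest iron-sulfur subunit of complex I, had 7.81, 10.04 and 43.9, and Cox4i1, the general form of subunit IV, 7.55, 4.98 and 35.2. Sdhc, an anchor of complex II, and Uqcrc2, a core protein of complex III, had EZH2 at 6.03 and 7.15 and no N-MYC peak. Uqcrb, Uqcrq, Ndufb9 and Ndufaf6 had EZH2 and N-MYC, whereas Cox6c, Atp5mpl and Ndufa2 had EZH2 without N-MYC.

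Restricted isoforms without a listed start showed 2 kinds of pattern. Cox6a2, of heart and muscle, and Cox8c, of testis, had no peak in any list over the whole gene. Cox4i2, known from lung, had H3K27me3 at both ends (9.50 and 5.33) and no other peak. Ndufa4l2, a hypoxia-responsive relative of Ndufa4, had EZH2 at 5.80, SUZ12 at 5.90 and H3K27me3 at 12.5 at one end and none of the active lists at its ends, with a weak H3K4me3 peak (5.47) inside the gene. Ndufb4c, a further copy of Ndufb4, had H3K27me3 at 6.56, H3K27ac at 4.0 and H3K4me3 at 7.02.

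Other genes of the pathway were read from lists set by function. For comparison, EZH2 was called at 46.6% and N-MYC at 34.4% of all genes with a listed start. Among genes with H3K4me3, which all 22 assembly factors and all 10 citric acid cycle genes below had, the shares were 74.0% and 64.8%. SUZ12 and H3K27me3 were at 9.60% and 14.5% of genes with H3K4me3. The lists are short, and differences from these shares were not tested. Of 22 assembly factors of complexes II to V with a listed start, 18 had EZH2, 19 N-MYC and none SUZ12 or H3K27me3, with Atpaf2, a factor of complex V, at 11.6 for N-MYC. Of the 6 genes for expression and copying of mitochondrial DNA, 5 had EZH2 and 5 N-MYC, with Tfb1m at 12.7 for N-MYC, and Polrmt, the mitochondrial RNA polymerase, had neither. Of 5 nuclear regulators, 4 had both, with N-MYC at 11.4 at Nrf1 and 12.7 at Pprc1, while Ppargc1a, the coactivator of brown fat and muscle, had no peak in any list. In the citric acid cycle 9 of 10 genes had EZH2 and 9 N-MYC. Cycs, the somatic cytochrome c, had EZH2 at 7.02 and N-MYC at 7.47, and Cyct, the testis form, had no peak.

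The 69 genes of mitochondrial ribosomal proteins were most like the members in function and import. EZH2 was called at 87.0% of them (interval 77.0 to 93.0%), N-MYC at 73.9% (interval 62.5 to 82.8%) and p300 at 94.2%, and the N-MYC interval overlaps that of the members. Cytosolic ribosomal protein genes, well-known MYC targets, had EZH2 at 88.5% of 61 genes and N-MYC at 90.2% (interval 80.2 to 95.4%), with a median N-MYC fold of 8.70. That N-MYC interval lies above the members' interval of 49.2 to 70.4%, while the EZH2 interval (78.2 to 94.3%) overlaps theirs. The intervals cover counting only and no test was made. SUZ12 was called at 0% of both ribosomal sets, and H3K27me3 at 1.45% of the mitochondrial and 3.28% of the cytosolic set. EZH2 calls with few SUZ12 or H3K27me3 calls are therefore not particular to the members.

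As a check of the labelled cell type, the starts of 6 genes expressed in T cells (Cd3d, Cd3e, Cd3g, Lck, Ptprc and Bcl11b) all had H3K4me3 and H3K27ac. The check is limited, as each mark was called at 52.8% of all genes and Ptprc is not specific to T cells. Cd3d and Cd3g also had the same folds, 25.8 for H3K27ac and 36.3 for H3K4me3. Of 7 genes of other lineages 3 had a listed start: Elane had no peak, Krt8 had EZH2, SUZ12 and H3K27me3, and Epcam had EZH2 at 5.18, SUZ12 at 3.87, H3K27ac at 5.31 and H3K4me3 at 19.3.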

How the data were processed

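Chromatin immunoprecipitates of 7 antibodies had 1 deposited peak list each. Reads were processed with Bowtie2, MACS2, SAMtools, FastQC and deepTools on mm10 (GRCm38), per the submitters' processing notes, which give no roles, versions or settings. The control library, filters and any pooling are not given in the sources used here, and the depth is unknown. The fold enrichment of a peak, a linear ratio over background, was used as deposited by the authors. A p-value and a q-value stand beside it, both deposited as −log10 values, and the lists end near a −log10 q of 2.00 to 2.08. The whole-number score column deposited by the authors entered no result. Columns were identified from the values, as the files have no header.

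Starts and sequences came from RefSeq tables of GRCm38.p6. A peak counted when it overlapped the start within 1 kb by at least 1 bp. A gene with several listed starts counted if any had a peak. Shares have 95% Wilson intervals (Python 3.11.15, pandas 2.3.3). Overlap steps were tested on simulated data. The members and lists were chosen with earlier results of these data known. The named genes were core subunits, tissue-restricted isoforms with their counterparts, the 3 highest and 3 lowest folds of the 5 lists other than SUZ12 and H3K27me3, members with SUZ12 or H3K27me3, without H3K4me3, with N-MYC and no EZH2, and the 10 with strongest H3K4me3 and no N-MYC. The others named were chosen after their values were seen. The bins of H3K4me3, the shared starts, CACGCG and the gene-end readings were added after seeing the data. Some values of single members are not reported here.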

Additional observations from a re-analysis of the deposited data

How the results depend on the processing

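Of 231 values recomputed under alternative settings for 28 results, 209 stayed inside the interval of the main value and 22 did not. With lists cut to equal length, EZH2 was called at 60.3% of members (35% of all genes), p300 at 62.8% (35.1%), H3K27ac at 82.1% (36%) and EZH2 with N-MYC at 41.0%, and EZH2 at 54.3% of complex I subunits and 28.6% of assembly factors. At a q-value of at most 1e-05, N-MYC was called at 48.7% (genes 32.2%), p300 at 70.5% (38%), both EZH2 and N-MYC at 42.3%, the 4 active lists at 39.7%, and N-MYC at 46.7% of complex V. At a fold of at least 4 these were 46.2%, 62.8%, 39.7%, 35.9% and 53.3%, with 31% and 34.8% of genes for the first 2. With a summit required within 1 kb, SUZ12 and H3K27me3 came to 0% (genes 11% and 17.5%). Without the tissue-restricted members, H3K27ac and H3K4me3 came to 100% and EZH2 to 88.9% of complex IV. Reading either gene end of all members, an alternative chosen after seeing the data, gave a median SUZ12 fold of 8.03 over 2 members. The stricter settings and shorter lists hold fewer peaks by construction. No paired analysis was possible because each antibody has 1 library and no result comes from a test.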
